A study of Mus musculus with 32 samples.

Results

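The genes described here carry the signal of insulin from its receptor to the transcription factor FOXO1. They were taken as the rows of the deposited expression table whose Ensembl identifier maps to Insr, Irs1, Irs2, Pik3ca, Pik3r1, Akt1, Akt2, Foxo1 or Gsk3b, which gave 9 of 55401 genes. All 9 passed the filter on low values, a normalized count of at least 10 in at least 7 libraries, as did 19928 genes in all. The series measured RNA by stranded paired-end sequencing of total RNA from the hypothalamus, the brain region that controls feeding and energy use. All mice were male C57BL/6NTac, ate standard chow to the age of 7 weeks and were killed at 149 or 150 days. After the chow, 8 hemizygous Gpr101 knockouts (KO_CD) and 7 wild-type littermates (WT_CD) ate control diet. The other mice, 9 knockouts (KO_HFD) and 8 wild types (WT_HFD), ate a high-fat diet in which fat gave 60% of the energy. Gpr101, an X-linked gene, encodes an orphan receptor, and its loss extended to every tissue as far as the labels say. The design asks whether loss of Gpr101, the high-fat diet or both together go with other levels of these genes, in a series whose title names insulin resistance.

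Insulin binds its receptor tyrosine kinase, which phosphorylates the insulin receptor substrate adaptors. These recruit phosphoinositide 3-kinase (PI 3-kinase), whose lipid product brings the kinase AKT to the membrane, and AKT then phosphorylates and restrains both glycogen synthase kinase 3 and FOXO1. In the hypothalamus this pathway acts in neurons that control feeding, where FOXO1 is known to favour transcription of the hunger peptides Agrp and Npy and to restrain Pomc. Much of the signal is carried by phosphorylation and by movement of FOXO1 out of the nucleus, neither of which RNA levels record.

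A feature of the adaptor genes is shown first, because it is the one stretch of sequence that members of the set were found to share. Promoter windows of 250 bases before to 50 bases after the start of each gene were available from RefSeq (GRCm38.p6) for 8 of the 9 genes, 13 windows in all, and none was used for Insr. They were searched on both strands for the insulin response element TGTTTTG, the E-box CACGTG, the FOXO element GTAAACA and the cAMP response element TGACGTCA. Irs1 and Irs2 each held an E-box followed at once by an insulin response element in the same orientation, and so did their paralog Irs4. An adjoining pair of this kind has been described for the Irs2 promoter as a site where insulin acts on transcription. The sequences below run 5′ to 3′ on the strand of the gene, with the E-box and the insulin response element in capitals.
Irs1: ctccgtCACGTGTTTTGctcctc
Irs2: cagagtCACGTGtTGTTTTGctctta
Irs4: gacggtCACGTGtTGTTTTGcccact

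In Irs1 (chr1:82291538-82291560, minus strand) the 2 elements overlapped by 2 bases, and the E-box began 115 bases before the RefSeq start of the gene, from which all distances here are counted. In Irs2 (chr8:11008954-11008979, minus strand) they lay 1 base apart, and the E-box began 44 bases before the start. In Irs4 (chrX:141725352-141725377, minus strand) they also lay 1 base apart, 154 bases before the start. The RefSeq starts of Irs1 and Irs2 lie 23 and 471 bases upstream of the gene bounds given with their values below, which come from another annotation. The pair in this order, overlapping or at most 5 bases apart, stood in 7 of 32851 windows of the same length (0.0213%), those of Irs1, Irs2, Irs4, Klf11, Pcbp1, Pyroxd1 and 1700019P21Rik. This pair was defined after the matches had been seen, so its rarity is a description. Separately, the insulin response element was in 5.56% of all windows, the E-box in 6.02%, the FOXO element in 3.17% and the cAMP response element in 1.55%. The only match to GTAAACA in a window of the 9 genes was in 1 of the 2 windows of Akt1, in the reverse orientation. No window of theirs held a cAMP response element. GTAAACA was the only sequence counted as a FOXO element, and whether FOXO1 binds the insulin response elements was not tested. The 250 bases before the start of Irs1 and Irs2 show the pair in its surroundings, with a second insulin response element 32 bases before the start of Irs1.
Irs1, chr1:82291440-82291689, minus strand: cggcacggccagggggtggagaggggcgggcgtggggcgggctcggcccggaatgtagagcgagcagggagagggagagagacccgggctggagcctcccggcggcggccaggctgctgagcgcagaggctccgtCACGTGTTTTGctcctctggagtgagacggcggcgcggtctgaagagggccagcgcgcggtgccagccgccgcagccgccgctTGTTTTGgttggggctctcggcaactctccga
Irs2, chr8:11008930-11009179, minus strand: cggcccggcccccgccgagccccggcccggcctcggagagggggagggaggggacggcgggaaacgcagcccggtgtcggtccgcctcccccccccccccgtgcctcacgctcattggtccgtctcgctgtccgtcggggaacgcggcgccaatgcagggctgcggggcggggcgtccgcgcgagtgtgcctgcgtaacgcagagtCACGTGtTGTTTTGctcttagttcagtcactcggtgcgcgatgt

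Both stretches were rich in G and C, at 72.4% in Irs1 and 72.8% in Irs2.

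Libraries held 25.3 to 34.2 megareads (M) on genes, with a median of 27.7 M. Gpr101 stood at 2692 to 2998 normalized counts (reads scaled by the library's size factor) in WT_CD and at 2738 to 2988 in WT_HFD. No read of it was found in KO_CD, and KO_HFD held 1 read, in replicate 4, so each library matched the genotype of its label. No gene checks the diet. Of 16 hypothalamic marker genes 15 passed the filter, and Kiss1 was listed at 0 in every library. Age followed diet closely: 5 KO_CD, 1 KO_HFD, 6 WT_CD and 1 WT_HFD mice were 149 days old and the others were 150 days old. The labels give 1 mouse per library, and in whole tissue a lower level can mean fewer cells of a type or less RNA per cell, which cannot be told apart.

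None of the 9 genes passed the test in any of the 7 comparisons made with limma (Benjamini-Hochberg adjustment over all 19928 genes, threshold 0.05, two-sided). For genotype on control diet 0 of the 9 were called, against 0.00502% of all genes, and for genotype on high-fat diet also 0, against 0.00502%. For diet the count was 0 in wild type (0.0251% of all genes called), 0 in knockout (0.0351%) and 0 averaged over genotypes (0.336%). It was 0 for genotype averaged over diets (0.00502%) and 0 for the interaction of genotype and diet (0%). The smallest adjusted p among these 63 tests was 0.662.

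Without adjustment, the count of genes with p below 0.05 was 0 for genotype on control diet (4.12% of all genes) and 1, Pik3ca, on high-fat diet (5.15%). It was 2, Pik3ca and Foxo1, for genotype averaged over diets (5.72%). It was 0 for diet in wild type (7.39%), in knockout (7.04%) and averaged over genotypes (11.1%), and 0 for the interaction (3.39%). The sizes can be given: all 63 intervals (95% each, not adjusted for their number) lay between 0.862 and 1.17 times, and the largest fitted log2 difference was 0.11. The range is thus no 95% bound for the 63 together. Its upper end came from the interaction for Irs2, which is a ratio of 2 fold changes. The median absolute log2 difference of the 9 genes ranged from 0.01 in diet in wild type, where it was 0.05 over all genes, to 0.03 in the interaction, where it was 0.06 over all genes. Their median SE was smaller too, at 0.03 against 0.06 over all genes for diet in wild type and 0.04 against 0.09 for the interaction. Whether the smaller differences set the 9 genes apart from other genes of like SE was not tested.

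**Figure D1:**
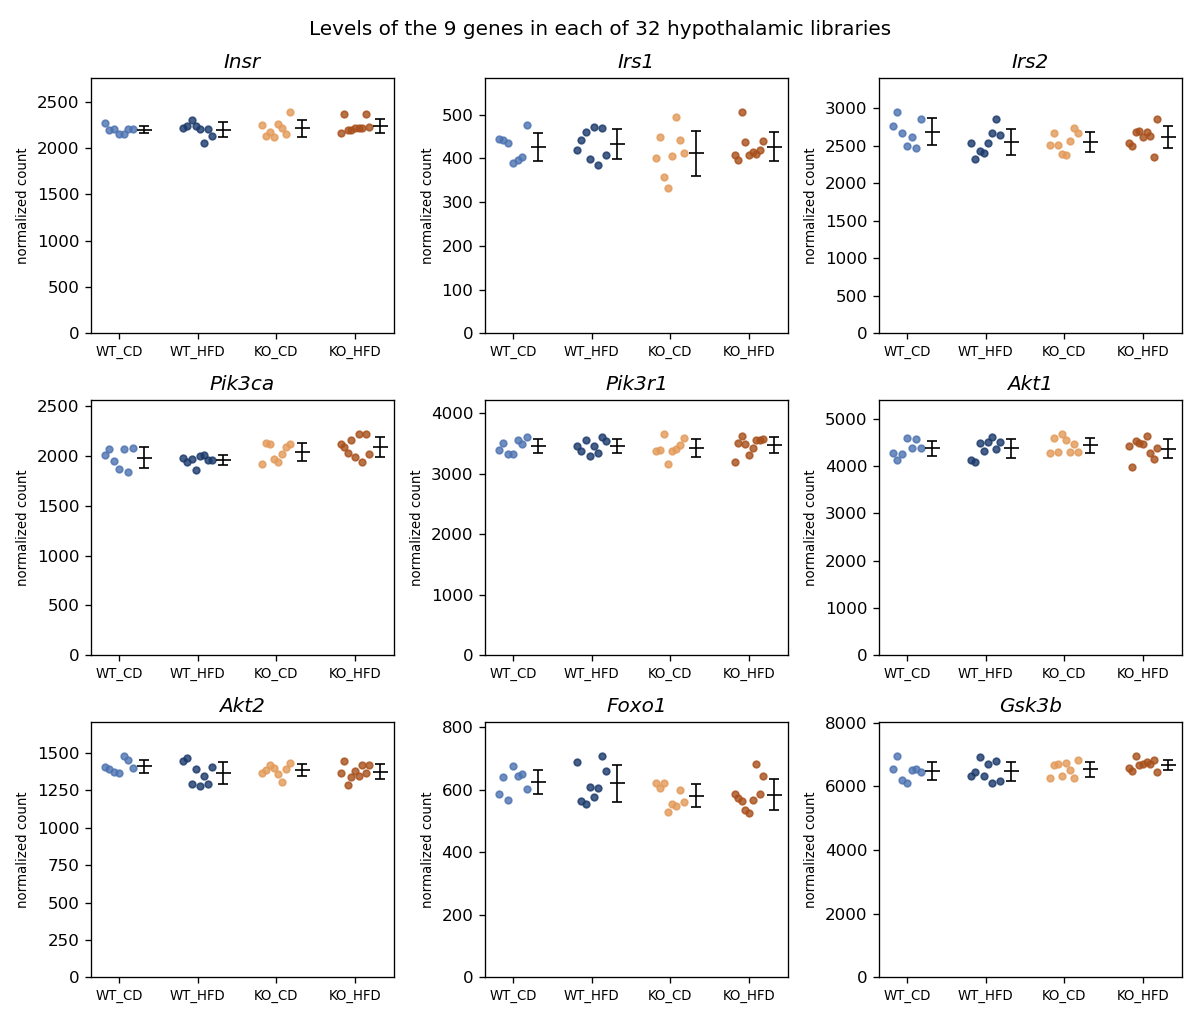
Normalized counts of the 9 genes (vertical axes, each from 0) in each of the 32 libraries, by group, with the group mean and SD beside the points. For each gene the 4 groups overlap, and the mean of Foxo1 is lower in both knockout groups (580.0 and 585) than in both wild-type groups (624 and 621).

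Insr (ENSMUSG00000005534, GRCm38 chr8:3122061-3279617, minus strand) encodes the insulin receptor. Its normalized count had a lowest, median and highest value of 2151, 2205 and 2265 in WT_CD and of 2049, 2212 and 2303 in WT_HFD. In the knockouts these were 2121, 2194 and 2392 in KO_CD and 2163, 2218 and 2362 in KO_HFD. The 4 groups overlapped almost entirely, with WT_HFD replicate 6 the lowest library and KO_CD replicate 8 the highest. The fitted log2 differences ran from -0.00 (SE 0.03) for diet in wild type to 0.03 (SE 0.03, adjusted p = 0.968) for genotype on high-fat diet by limma. Insr had the smallest spread of the 9 genes, with a coefficient of variation within groups of 3.25%, where counting error alone gives 2.12%.

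Irs1 (ENSMUSG00000055980, GRCm38 chr1:82233101-82291416, minus strand) encodes an adaptor that the receptor phosphorylates. It stood at 388, 435 and 476 normalized counts (lowest, median, highest) in WT_CD and at 384, 430.2 and 472 in WT_HFD. KO_CD held 332, 409 and 495, and KO_HFD held 396, 415 and 507. The groups overlapped, and KO_CD had the lowest library of the gene, replicate 4, and a wide range. The fitted log2 difference of KO_CD from WT_CD was -0.06 (SE 0.06, adjusted p = 0.9999 by limma), and diet in knockout gave 0.06 (SE 0.06). Irs1 had the fewest reads, 318 to 537 per library, and the widest spread within groups, a coefficient of variation of 9.15%, where counting error alone gives 4.85%.

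Irs2 (ENSMUSG00000038894, GRCm38 chr8:10984681-11008458, minus strand) encodes the adaptor tied to feeding and body weight in mice. Its lowest, median and highest normalized counts were 2467, 2668 and 2951 in WT_CD and 2314, 2536 and 2857 in WT_HFD. KO_CD held 2374, 2534 and 2738, and KO_HFD held 2344, 2632 and 2856. WT_CD had the highest median and its replicate 2 the highest library, but every pair of groups overlapped. The log2 difference by diet was -0.08 (SE 0.04, unadjusted p = 0.0754, adjusted p = 0.715 by limma) in wild type and 0.03 (SE 0.04) in knockout. Their difference, the interaction, was 0.11 (SE 0.06, unadjusted p = 0.0597, adjusted p = 0.999 by limma), the largest fitted value of the set. Genotype gave -0.07 (SE 0.04) on control diet and 0.04 (SE 0.04) on high-fat diet.

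The level of immediate early genes moved with Irs2. The mean log2 level of 12 such genes, which neurons switch on within minutes of stimulation, was 8.63 ± 0.59 in KO_CD, 9.12 ± 0.36 in KO_HFD, 9.34 ± 0.44 in WT_CD and 9.32 ± 0.35 in WT_HFD (SD, n as above). With that mean as a covariate, chosen after the data were seen, the Irs2 interaction was 0.04 (unadjusted p = 0.385, adjusted p = 0.9997 by limma), and genotype on control diet was 0.03 in place of -0.07. The other Irs2 differences with that covariate are not given. Over the alternatives other than leaving out 1 library, genotype on high-fat diet ran from 0.02 to 0.07 for Irs2 (smallest unadjusted p = 0.0333 by limma). Diet in knockout ran from -0.03 to 0.05 over the same alternatives. Diet in wild type ran from -0.13 to -0.04 (smallest unadjusted p = 0.0115, smallest adjusted p = 0.544 by limma), against -0.08 in the fit reported. Diet averaged over genotypes ran from -0.06 to 0.00 (smallest unadjusted p = 0.0196, smallest adjusted p = 0.363 by limma), against -0.02. Some Irs2 differences thus grew under an alternative and others shrank. The part of the immediate early genes in the Irs2 values was not tested further.

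Pik3ca (ENSMUSG00000027665, GRCm38 chr3:32397671-32468486, plus strand) encodes the p110-alpha catalytic subunit of PI 3-kinase. Wild type held 1836, 2011 and 2085 normalized counts (lowest, median, highest) in WT_CD and 1858, 1964 and 2008 in WT_HFD. The knockouts held 1917, 2056 and 2128 in KO_CD and 1936, 2095 and 2225 in KO_HFD. The knockout ranges reached higher on each diet, and the ranges overlapped. On high-fat diet the log2 difference of knockout from wild type was 0.09 (SE 0.03, unadjusted p = 0.00449, adjusted p = 0.948 by limma). With 1 library left out it ran from 0.08 to 0.10. The largest unadjusted p by limma, 0.0142, came without WT_HFD replicate 4, the lowest library of its group. With all libraries, the difference was 0.04 (SE 0.03) on control diet and 0.07 averaged over diets (SE 0.02, unadjusted p = 0.00489, adjusted p = 0.801 by limma). Within each of the 4 runs of 8 consecutive serial numbers in the labels the knockout mean was the higher, by 0.04, 0.12, 0.05 and 0.05, and it was higher at 149 days (0.05) and at 150 days (0.08). No test was made within runs or ages. They are parts of the same 32 libraries as the averaged difference, so their shared sign is no separate support. The annotated gene Gm37123 overlaps Pik3ca on the same strand and was listed with 1.77% as many reads.

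Pik3r1 (ENSMUSG00000041417, GRCm38 chr13:101680563-101768217, minus strand) encodes the p85-alpha regulatory subunit, which holds the catalytic subunit and binds the adaptors. It stood at 3324, 3502 and 3618 normalized counts in WT_CD and at 3296, 3461 and 3605 in WT_HFD (lowest, median, highest). KO_CD held 3170.4, 3397 and 3667, and KO_HFD held 3204, 3519.6 and 3623. The groups overlapped, and both the lowest and the highest library belonged to KO_CD. The fitted log2 differences lay between -0.01 (genotype on control diet, SE 0.03) and 0.02 (interaction, SE 0.04).

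Akt1 (ENSMUSG00000001729, GRCm38 chr12:112653821-112674884, minus strand) encodes the most widely expressed AKT kinase. Its lowest, median and highest normalized counts were 4126, 4374 and 4582 in WT_CD and 4081, 4426 and 4618 in WT_HFD. KO_CD held 4268, 4385 and 4684, and KO_HFD held 3970.2, 4432 and 4632. The groups overlapped, with the lowest library in KO_HFD, replicate 2. The fitted log2 differences lay between -0.02 (interaction, SE 0.04) and 0.02 (genotype on control diet, SE 0.03).

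Akt2 (ENSMUSG00000004056, GRCm38 chr7:27591552-27640826, plus strand) encodes the AKT kinase best known for insulin action on glucose. WT_CD held 1369, 1399.6 and 1483 normalized counts and WT_HFD 1280.3, 1371 and 1465 (lowest, median, highest). KO_CD held 1306, 1392 and 1436, and KO_HFD held 1284, 1369 and 1449. WT_HFD had the widest range and overlapped every other group. The largest fitted log2 difference was that of diet in wild type, -0.05 (SE 0.03, adjusted p = 0.763 by limma).

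Gsk3b (ENSMUSG00000022812, GRCm38 chr16:38089001-38246084, plus strand) encodes glycogen synthase kinase 3 beta, an AKT substrate. It stood at 6110.4, 6509.9 and 6969 normalized counts in WT_CD and at 6114, 6399.9 and 6917 in WT_HFD (lowest, median, highest). KO_CD held 6254, 6594 and 6831, and KO_HFD held 6446, 6692 and 6959.7. KO_HFD lacked the low libraries of the other groups, and its range lay inside that of WT_CD. Genotype on high-fat diet gave a log2 difference of 0.05 (SE 0.03, unadjusted p = 0.0838, adjusted p = 0.948 by limma), and genotype on control diet 0.01 (SE 0.03).

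Foxo1 (ENSMUSG00000044167, GRCm38 chr3:52268336-52353221, plus strand) encodes the transcription factor at the end of the pathway. Its lowest, median and highest normalized counts were 567, 639 and 676 in WT_CD and 554, 608 and 709 in WT_HFD. KO_CD held 528, 581 and 623, and KO_HFD held 527, 572 and 682. The knockout medians lay below the wild-type medians on both diets, and the ranges overlapped. The log2 difference of knockout from wild type was -0.11 within the control-diet mice (SE 0.05, adjusted p = 0.9999 by limma) and -0.08 within the high-fat mice (SE 0.05, adjusted p = 0.948 by limma). Averaged over diets it was -0.09 (SE 0.04, unadjusted p = 0.0138, adjusted p = 0.848 by limma), so it did not pass the test. Diet gave -0.01 (SE 0.05) in wild type and 0.01 (SE 0.05) in knockout.

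The knockout mean of Foxo1 was the lower in each of the 4 runs of serial numbers, by log2 differences of -0.05, -0.10, -0.17 and -0.10. It was also the lower among mice of 149 days (-0.12, 6 knockouts and 7 wild types) and of 150 days (-0.07, 11 and 8). As for Pik3ca, these are parts of the libraries that gave the averaged difference, and no test was made within them. Their shared sign is no separate support. Markers of tanycytes and ependyma, the cells that line the third ventricle, moved with Foxo1. The mean log2 level of the 10 markers was 8.09 ± 0.13 in KO_CD and 8.11 ± 0.13 in KO_HFD, against 8.21 ± 0.15 in WT_CD and 8.20 ± 0.17 in WT_HFD (SD). Their summed level ranged from 122 to 153 reads per megaread in KO_CD, 126 to 165 in KO_HFD, 140.1 to 176 in WT_CD and 129.5 to 189 in WT_HFD, and none was at 0 throughout. With their mean as a covariate, chosen after the data were seen, the averaged difference of Foxo1 was -0.05 (unadjusted p = 0.160, adjusted p = 0.999 by limma). The means of other lists differed by genotype too. The mean of the hypothalamic markers was 9.64 ± 0.07 in KO_CD and 9.60 ± 0.05 in KO_HFD, against 9.69 ± 0.07 in WT_CD and 9.68 ± 0.09 in WT_HFD. That of the oligodendrocyte markers was 12.31 ± 0.09 in KO_CD against 12.22 ± 0.09 in WT_CD, and on high-fat diet 12.28 ± 0.11 in KO_HFD against 12.28 ± 0.10 in WT_HFD (SD). The part of these cells in the Foxo1 values was not tested further.

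**Figure D2:**
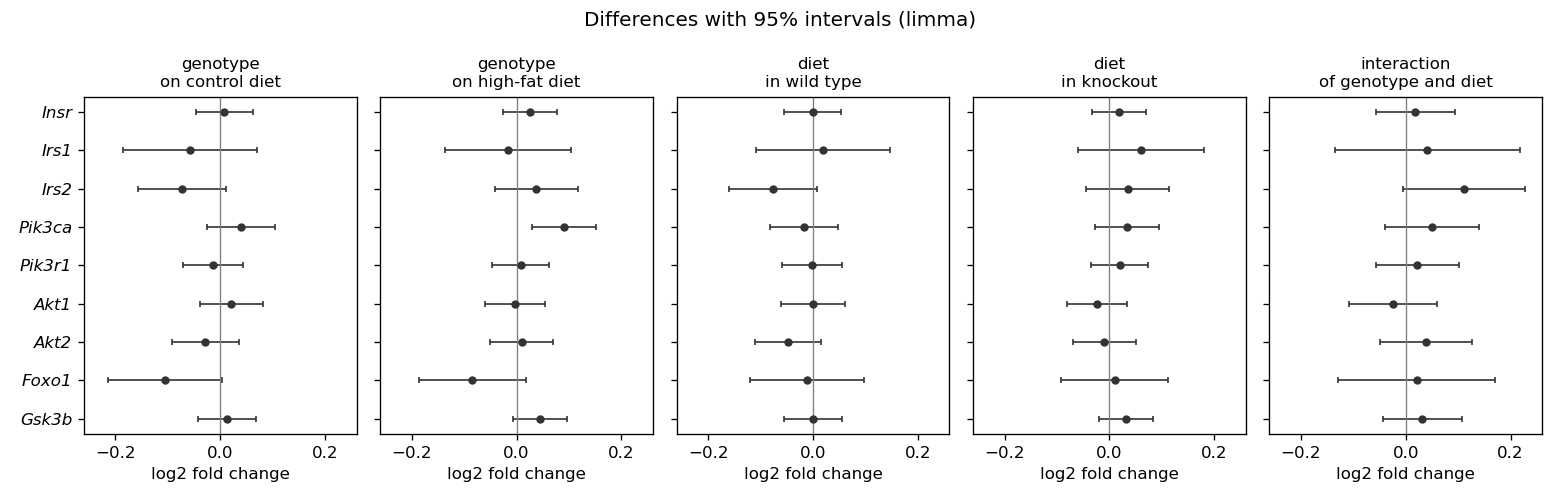
Fitted log2 differences of the 9 genes (points) with 95% intervals (bars) in 5 comparisons from limma, knockout minus wild type, high-fat minus control diet, or the interaction. Only the interval of Pik3ca for genotype on high-fat diet leaves out 0, and no difference passes the adjusted threshold.

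Levels were compared between genes per length, as reads per kilobase of exon and megaread (RPKM). Over the 32 libraries Akt1 was the most abundant at 38.2 ± 1.45 RPKM, followed by Gsk3b at 23.8 ± 0.868 and Irs2 at 14.7 ± 0.882 (SD, n = 32). Pik3r1 stood at 12.3 ± 0.452, Pik3ca at 7.94 ± 0.386 and Akt2 at 6.93 ± 0.283 RPKM. Insr, at 5.75 ± 0.197, Foxo1, at 2.48 ± 0.207, and Irs1, at 1.66 ± 0.146 RPKM, were the lowest. Each neighbouring pair kept this order in 32 of 32 libraries, except Pik3ca over Akt2, which held in 31 of 32 and was the only pair with overlapping ranges. The receptor was thus present at a lower level per length than Pik3ca, Pik3r1, Akt1 and Akt2. Length is the union of annotated exons, so a gene with long untranslated exons that are little used reads lower.

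Paralogs of the genes other than Akt1 and Akt2 showed which family member was most abundant in this tissue. Among the insulin receptor substrates, Irs4 led with 58.5% of the summed RPKM, Irs2 held 37.3% and Irs1 4.22% (mean over 32 libraries). Insr held 56.0% and the related receptor of insulin-like growth factor, Igf1r, 44.0%. Pik3ca held 51.2% of the catalytic subunits, with Pik3cb at 24.5% and Pik3cd at 24.3%. The regulatory subunits were more even, with Pik3r1 at 32.7%, Pik3r2 at 38.6% and Pik3r3 at 28.7%. Gsk3b held 36.7% and Gsk3a 63.3%.

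Foxo1 held 12.5% of the FOXO family, below Foxo3 at 37.0%, Foxo4 at 34.1% and Foxo6 at 16.4%. By group the share of Foxo1 was 13.3 ± 0.87% in WT_CD, 12.8 ± 1.06% in WT_HFD, 12.03 ± 0.57% in KO_CD and 12.1 ± 1.25% in KO_HFD (SD). The share of Irs2 was 37.7 ± 3.51% in WT_CD, 37.3 ± 2.11% in WT_HFD, 37.7 ± 1.38% in KO_CD and 36.7 ± 1.69% in KO_HFD. No test was made of the shares. None of the 10 paralogs shown passed the limma test in any comparison.

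**Figure D3:**
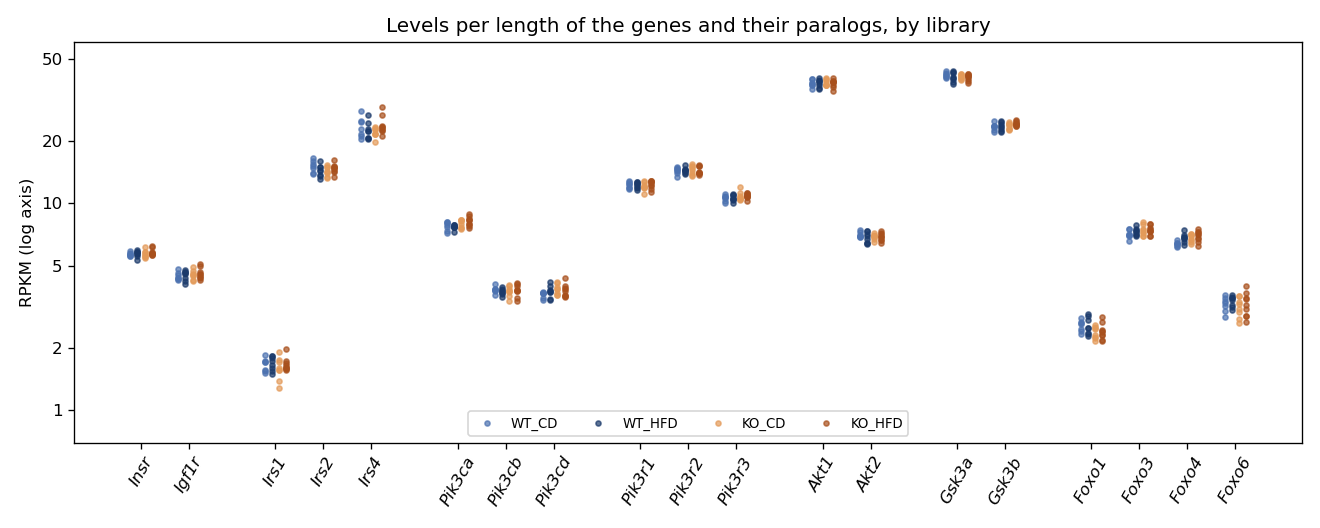
Level per length (RPKM, log axis) of the 9 genes and 10 paralogs in each of 32 libraries, in columns by group. Irs4 lies above Irs2 and both lie far above Irs1, and Foxo3 and Foxo4 lie above Foxo1.

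The 9 genes were then compared with each other over the 32 libraries after the group means had been removed, which gave 36 pairs (permutation p within groups, 100000 permutations, adjusted over the pairs). Pearson's r ranged from -0.595 to 0.452 with a median of 0.0607, and 20 pairs were above 0, so the genes did not vary together as a set. The strongest pair was Insr with Akt1, with r = -0.595 (permutation p = 0.00066, adjusted p = 0.0238) and Spearman's rho = -0.602 (adjusted p = 0.0220). Without the 2 libraries farthest from the median of Insr it was -0.574, and within the 4 runs of serial numbers -0.835, -0.359, -0.295 and -0.806. Irs1 and Akt2 gave r = -0.516 (adjusted permutation p = 0.0373) and rho = -0.452 (adjusted p = 0.149), and -0.494 without the 2 farthest libraries. Within the runs of serial numbers this pair gave -0.309, -0.853, -0.751 and -0.636. Irs1 and Irs2, the adaptors with the shared promoter pair, gave r = 0.436 (permutation p = 0.0144, adjusted p = 0.129) and rho = 0.478 (adjusted p = 0.149), which did not pass. All values in a library share 1 size factor and 1 tissue sample.

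Each of the 9 genes was also set against 15 lists of marker genes, 135 relations in all, over the same 32 libraries. By the adjusted permutation p, 9 relations passed with Pearson's r, 9 with Spearman's rho and 7 with both. The strongest was Irs2 with the immediate early genes, at r = 0.715 (permutation p = 3e-05, adjusted p = 0.00405) and rho = 0.765 (adjusted p = 0.0027). It was 0.739 without the 2 farthest libraries, 0.675 with age removed, and 0.878, 0.392, 0.868 and 0.519 within the 4 runs of serial numbers. It stood above 0 in every group, at 0.798 in KO_CD, 0.398 in KO_HFD, 0.947 in WT_CD and 0.812 in WT_HFD.

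Foxo1 and the tanycyte and ependymal markers gave r = 0.547 (adjusted permutation p = 0.0400) and rho = 0.543 (adjusted p = 0.0490). Without the 2 farthest libraries r was 0.426, and within the runs of serial numbers it was 0.386, 0.454, 0.841 and 0.603. By group it was 0.829 in KO_HFD, 0.635 in WT_CD and 0.636 in WT_HFD, but -0.0836 in KO_CD. Gsk3b went the other way with the same markers, at r = -0.611 (adjusted permutation p = 0.0229, rho = -0.615), and -0.654 without the 2 farthest libraries. Its values within the runs of serial numbers were -0.794, -0.711, -0.0506 and -0.758. Foxo1 also fell with oligodendrocyte markers, at r = -0.572 (adjusted permutation p = 0.0331, rho = -0.548), and -0.439 without the 2 farthest libraries. Within the runs of serial numbers that relation was -0.339, -0.486, -0.556 and -0.551.

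Akt1 was lower where vessel and meningeal markers were higher, with r = -0.642 for meninges (adjusted permutation p = 0.0139, rho = -0.620) and r = -0.635 for endothelium (adjusted permutation p = 0.0139, rho = -0.571). Without the 2 farthest libraries these were -0.563 and -0.532. Within the runs of serial numbers meninges gave -0.591, -0.635, -0.636 and -0.192, and endothelium -0.836, -0.465, -0.00527 and -0.613. Akt2 with oligodendrocyte markers gave r = -0.532 (adjusted permutation p = 0.0489, rho = -0.588), -0.456 without the 2 farthest libraries, and -0.634, -0.298, -0.679 and -0.607 within the runs. Akt2 with neuronal markers (r = -0.630, adjusted permutation p = 0.0229, rho adjusted p = 0.0685) and Akt1 with choroid plexus (r = -0.554, adjusted permutation p = 0.0400, rho adjusted p = 0.0754) passed by Pearson's r alone. Pik3r1 with microglial markers (r = -0.468, adjusted permutation p = 0.0891, rho = -0.528 with adjusted p = 0.0490) and Gsk3b with neuronal markers (r = 0.476, adjusted permutation p = 0.134, rho = 0.555 with adjusted p = 0.0490) passed by rho alone. By diet, the meningeal mean was 8.24 ± 0.98 in KO_HFD and 8.49 ± 1.26 in WT_HFD against 7.81 ± 0.83 in KO_CD and 7.63 ± 0.68 in WT_CD (SD).

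**Figure D4:**
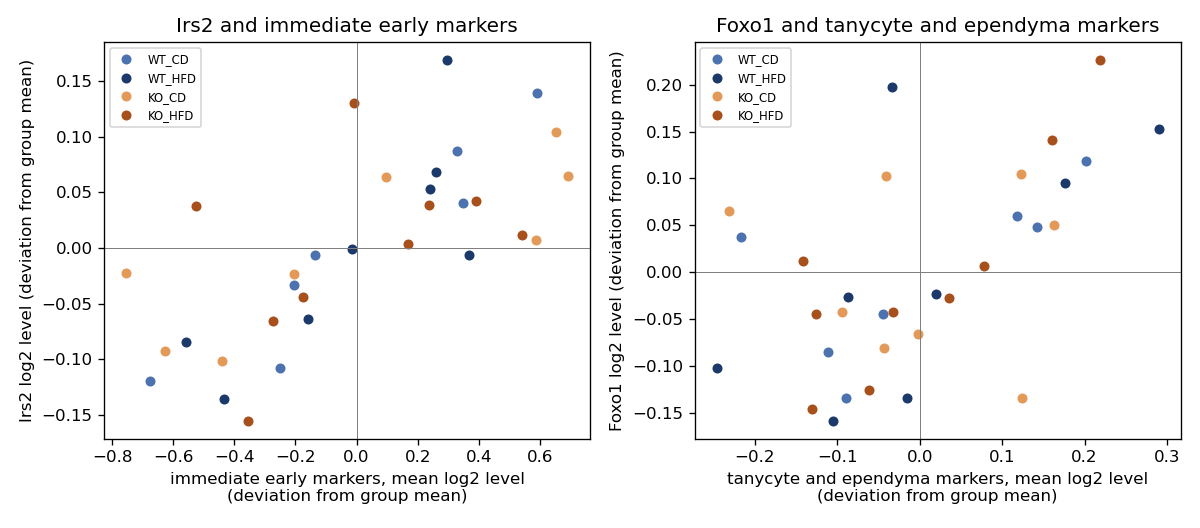
Left, the log2 level of Irs2 against the mean log2 level of 12 immediate early genes. Right, Foxo1 against 10 tanycyte and ependymal markers. Each point is 1 of 32 libraries, as its deviation from the group mean, and the left relation (r = 0.715) is tighter than the right (r = 0.547).

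The genes most like each of the 9 across the 32 libraries, by Pearson's r after removal of the group means, were found among 14147 genes as a description. For Irs2 they were Per2 (r = 0.808), Fosl2 (r = 0.761) and Egr3 (r = 0.758), of which Fosl2 is in the list of immediate early genes. For Foxo1 they were Iqub (r = 0.805), Armc4 (r = 0.713) and Ttc21a (r = 0.688). For Insr they were Klf7 (r = 0.736), Fdps and Tnik, and for Irs1 Amer2 (r = 0.774), Pi4ka and Ago1. Pik3ca was most like Soat1 (r = 0.712), Hcfc2 and Tmem167b, and Pik3r1 was most like Pbrm1 (r = 0.732), Cep170 and Tsc1, itself an inhibitor of the pathway. Akt1 was most like Agap3 (r = 0.800), Cspg5 and Lrrc4b, Akt2 most like Efnb2 (r = 0.782), Ghr and Anxa5, and Gsk3b most like Srcin1 (r = 0.805) and Sema5b.

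A list of 136 other genes of insulin signalling, from ligands to FOXO targets, was read beside the 9. Of these 131 passed the filter, and Ins1, Ins2, Trim63, Pck1 and G6pc did not. None of the 131 was called in the genotype comparisons, in diet within either genotype or in the interaction. For diet averaged over genotypes 2 were called higher and 0 lower, against 0.336% of all genes. The unadjusted count for that comparison was 14 higher and 9 lower of 131, against 11.1% of all genes. For genotype averaged over diets it was 3 higher and 4 lower, against 5.72%. The median log2 difference of the list was 0.01 in both, where that of all genes was -0.00.

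Socs3, which inhibits both the insulin and the leptin receptor, was the first called gene. It stood at 89.9, 123 and 148 normalized counts (lowest, median, highest) in WT_CD and at 132, 173 and 283 in WT_HFD. KO_CD held 92.4, 128 and 143, and KO_HFD held 152, 174 and 211. The diets did not overlap in knockouts and overlapped in wild type, where WT_HFD replicate 1 was the highest. Averaged over genotypes Socs3 was higher on high-fat diet by 0.53 (log2, SE 0.08, adjusted p = 0.000295 by limma). Within the runs of serial numbers the difference was 0.83, 0.55, 0.18 and 0.52. With age as a covariate it was 0.58 (adjusted p = 0.00774). It missed the threshold in each genotype alone, with adjusted p = 0.140 in wild type and 0.0591 in knockout, and these became calls in some alternative fits.

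Nras, a GTPase of the mitogen-activated kinase arm below the receptor, was the other called gene. It held 713, 791 and 852 normalized counts in WT_CD and 854, 891 and 921 in WT_HFD (lowest, median, highest). KO_CD held 739, 835 and 904, and KO_HFD held 831, 899 and 960.3. The diets stood just apart in wild type and overlapped in knockouts. Averaged over genotypes Nras was higher on high-fat diet by 0.14 (log2, SE 0.03, adjusted p = 0.00575 by limma). With age as a covariate the difference was 0.13 and no longer called (adjusted p = 0.212). Within the runs of serial numbers it was 0.12, 0.13, 0.18 and 0.14. Socs3 and Nras are described because they were called in these same libraries. Separate ranges and a shared sign over the runs are thus no separate support for either gene. The share of all genes with separate ranges was not counted.

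Markers of blood, mainly haemoglobin genes, moved with diet beside both called genes. The mean log2 level of the 6 markers was 8.95 ± 0.29 in KO_CD and 9.53 ± 0.36 in KO_HFD, and 8.87 ± 0.29 in WT_CD and 9.58 ± 0.51 in WT_HFD (SD). Their summed level ranged from 321 to 722 reads per megaread in KO_CD, 529 to 1262 in KO_HFD, 340.0 to 566 in WT_CD and 521 to 1422 in WT_HFD. With that mean as a covariate, chosen after the data were seen, neither gene was called for diet averaged over genotypes. The difference of Socs3 was then 0.42 (SE 0.11, adjusted p = 0.181 by limma) and that of Nras 0.14 (SE 0.04, adjusted p = 0.292 by limma). The part of blood in either value was not tested further.

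Among the FOXO targets, 0 of 23 were called in any comparison, where 0% to 0.336% of all genes were called. Without adjustment, 2 had p below 0.05 for genotype on control diet (4.12% of all genes) and 3 on high-fat diet (5.15%). For diet it was 8 in wild type (7.39%), 4 in knockout (7.04%) and 8 averaged over genotypes (11.1%). It was 4 for genotype averaged over diets (5.72%) and 3 for the interaction (3.39%). These counts were not tested against the shares. Eif4ebp1, which encodes a repressor of translation, had the smallest p for genotype on control diet, with a log2 difference of 0.80 (SE 0.18, adjusted p = 0.429 by limma). It held 14.9 to 25.03 normalized counts in WT_CD and 27.2 to 44.8 in KO_CD, which did not overlap, and 17.8 to 50.3 in WT_HFD and 20.5 to 35.1 in KO_HFD. These rest on few reads, 15 to 24 in WT_CD and 26 to 43 in KO_CD. Eif4ebp1 was picked by its p, so the separation of ranges is no separate support. With both diets pooled, the knockout mean was higher by 0.78 (log2) at 149 days and by 0.07 at 150 days. Of the mice of 149 days 11 ate control diet and 2 high-fat diet, and of those of 150 days 4 and 15. Age and diet can thus hardly be told apart in this split. With 1 library left out, genotype on high-fat diet ran from -0.10 to 0.11 for Eif4ebp1. Its interaction ran from -0.90 to -0.69 (smallest unadjusted p = 0.000434, smallest adjusted p = 0.996 by limma). Npy, the hunger peptide that FOXO1 favours, gave -0.32 (SE 0.10, adjusted p = 0.162 by limma) for diet averaged over genotypes and -0.26 (SE 0.10, adjusted p = 0.848) for genotype averaged over diets. Agrp gave -0.30 (SE 0.11, adjusted p = 0.239 by limma) for diet averaged over genotypes. Pomc, which FOXO1 restrains, gave -0.37 (SE 0.15, adjusted p = 0.948 by limma) for genotype on high-fat diet. The stress-induced sestrins gave -0.14 (SE 0.05) for Sesn2 with genotype on high-fat diet, and -0.20 (SE 0.07) for Sesn2 and 0.10 (SE 0.04) for Sesn3 in the interaction.

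Other genes of smallest p did not pass either. Among the inhibitors, Inpp5d gave -0.17 (SE 0.07) for diet in knockout and Tsc2 gave -0.05 (SE 0.02) for genotype averaged over diets. Among factors and adaptors, Foxo4 gave 0.09 (SE 0.04) for genotype on control diet and Gab1 gave 0.09 (SE 0.04) for genotype on high-fat diet. Among effectors, Srebf1, which drives fatty acid synthesis, gave -0.09 (SE 0.03) for diet in knockout, the glucose transporter gene Slc2a3 gave 0.06 (SE 0.03) for genotype on high-fat diet, and Eif4ebp2 gave 0.05 (SE 0.02) for genotype averaged over diets. Braf gave 0.07 (SE 0.04) in the interaction. Of the 10 ligand and receptor genes that passed the filter, 9 had a value above 0 for diet averaged over genotypes, with a median of 0.19, and 0 were called. Over all genes 9844 of 19928 were above 0, with a median of -0.00. Of the 10, 1 had an unadjusted p below 0.05 by limma, and their median SE was 0.10. The shared sign of this group was not tested. Igf2 of that group, at 0.48 (SE 0.35, adjusted p = 0.650 by limma), is also one of the meningeal markers given above.

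**Figure D5:**
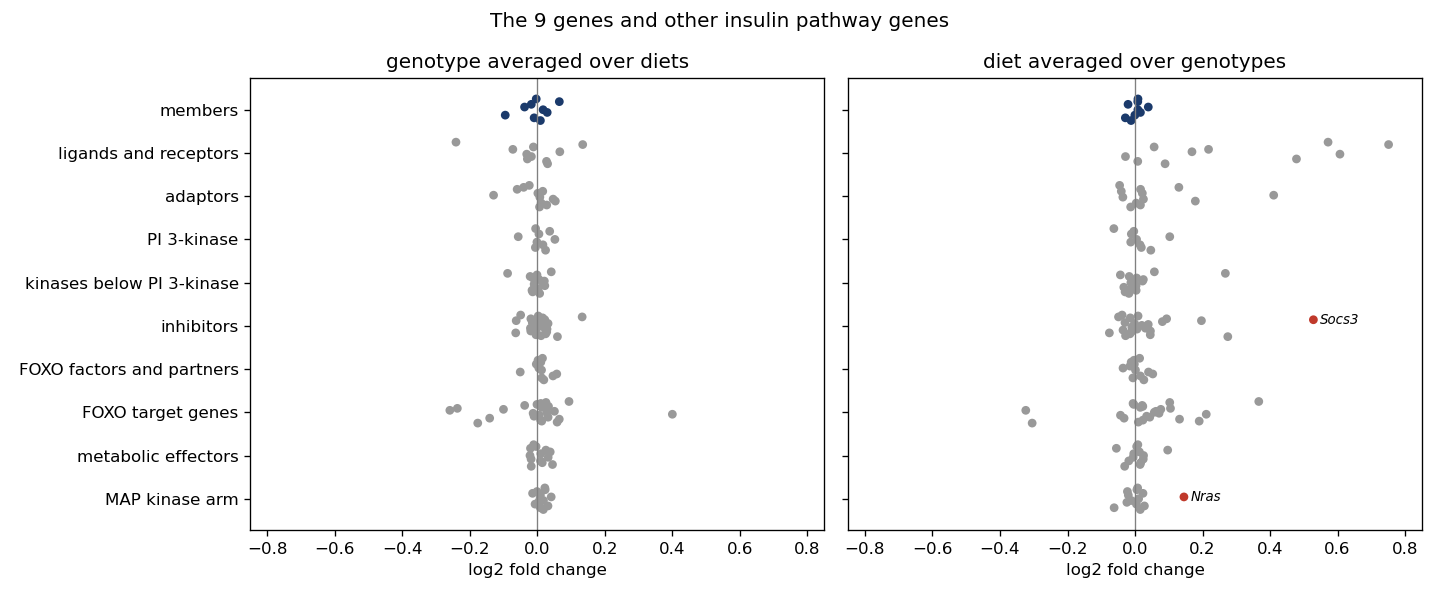
Fitted log2 differences of the 9 genes (top row of each panel, dark blue) and of 131 other insulin pathway genes by role, for genotype averaged over diets (left) and diet averaged over genotypes (right). The 9 genes lie within 0.11 of 0 in both panels, and the 2 called genes, Socs3 and Nras, are in red.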

How the data were processed

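The authors deposited log2 values for each gene and library. Undoing the log2 and dividing by what 1 read is worth in that library gave whole reads for 100% of values above the floor (tolerance 1e-06 reads), so the values are read counts scaled by size factors, with 0 reads standing at the log2 of 0.1. Per the submitters' processing notes the build was GRCm38, the aligner named is STAR 2.7.6a, trimming tools named are cutadapt 2.10 and Trim Galore 0.6.2, and DESeq2 1.28.1 in R 4.0.2 is also named. How reads were counted, on which strand and with which annotation is not given in the sources used here. Groups came from the labels. Of 55401 identifiers, 55141 were paired with a symbol in a GRCm38 annotation. Values of log2(normalized count + 1) were fitted with limma 3.58.1 (R 4.3.3, statmod 1.5.0; 1 fit of 32 libraries, intensity trend, robust moderation, no covariate), and adjusted p-values in the text are Benjamini-Hochberg values over 19928 genes. The pseudocount of 1 shrinks fold changes of low genes. The fit was checked on simulated data. Correlations used Python 3.11.15 and scipy 1.17.1, with two-sided permutation tests within groups. Named genes were all 9 genes in every comparison, each other pathway gene called, the 2 of smallest p in each direction per comparison, Gpr101 and the 3 most similar genes. Igf2, Kiss1, the paralogs and the genes sharing the promoter pair are named outside that rule, after their values were seen. One similar gene and one paralog are not reported here. The 9 genes and all lists were chosen with earlier results of these data known. The alternatives tried are given with their effect in the closing section.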

Additional observations from a re-analysis of the deposited data

Results flagged for a closer look

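For the 9 genes and for Socs3 and Nras, the highest and the lowest library of each group were set against Dixon's 95% limit. In 2 of 44 groups a library passed it, where chance gives about 1 in 20. Irs1 in KO_HFD replicate 3 stood at 507 normalized counts, and the next library of its group at 439.6 (gap over range 0.604, limit 0.493). Pik3ca in WT_HFD replicate 4 stood at 1858 normalized counts, and the next at 1945 (gap over range 0.579, limit 0.526).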

How the results depend on the processing

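None of the 9 genes was called in any of 2016 values that left out 1 library (smallest adjusted p = 0.482 by limma) or in 999 values under the other alternatives (smallest adjusted p = 0.363 by limma). Their fitted differences changed sign in 82 and 45 of these. In the genotype comparisons and the interaction 0 other pathway genes were called under every alternative run.

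For diet in wild type 1 pathway gene, Socs3, was called with library quality weights and with the tanycyte and ependymal covariate, and 0 to 1 when 1 library was left out (1 without WT_HFD replicate 6). For diet in knockout it was 1, again Socs3, with quality weights, with the tanycyte and ependymal covariate and with only the 2 groups compared. Leaving out 1 library gave 0 to 1 there (1 without KO_HFD replicate 3, WT_CD replicate 3 or WT_HFD replicate 1, 5 or 6). For diet averaged over genotypes it was 1 with age as a covariate, 0 with the blood covariate, and 2 to 3 without 1 library (3 without KO_CD replicate 7). Over all genes the calls for that comparison were 67 in the fit reported, 12 with age, 12 with the blood covariate, 42 with the meningeal covariate, 43 without a filter and 89 with the tanycyte and ependymal covariate. Without KO_CD replicate 5 or WT_CD replicate 1, 2 or 6 they were 43, 44, 41 and 41. They ranged from 0, with the blood covariate, to 9 for diet in wild type (5 in the fit reported), from 3 to 13 in knockout (7) and from 1 to 2 for genotype (1).

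With the biological replicate number of the titles as a replicate block, 0 of the 9 genes and 2 pathway genes were called for diet averaged over genotypes, and 45 of all genes. The numbers did not pair the mice: over 45 pairs of the same number the median correlation of deviations from group means was 0.00508, and 8 exceeded 0.1. The covariates of tanycyte and ependymal markers, of blood markers and of immediate early genes were chosen after the data were seen. Depth limits Irs1 and Foxo1 most, with counting errors of 4.85% and 4.07%.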
